A study of Mus musculus with 6 samples.

Results

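The Cd28, Ctla4 and Icos locus is a cluster of costimulatory receptor genes on mouse chromosome 1, and it was described here by the islands of mSin3A chromatin immunoprecipitation sequencing (ChIP-seq) found in it. An island is a broad stretch of neighbouring windows enriched in ChIP reads, as the peak caller SICER lists them. The members were all islands with at least 1 bp between positions 60790000 and 61070000 of chromosome 1 on the mouse build mm9, a span of 280 kb that holds Cd28 (from about 60803000), Ctla4 (from about 60944000) and Icos (from about 61035000), all on the plus strand. They numbered 19 of 54058 islands in 4 lists.

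The cells were spleen CD8+ T cells sorted for a high level of T cell receptor beta. Those of genotype Tcf1-/-Lef1-/- (called DKO below) came from mice in which Cre recombinase under Cd4 control had deleted both genes, and those called WT came from wild-type control mice. Each genotype gave 1 ChIP library in condition 1 and 1 in condition 2. What separates the conditions, and how many mice were used, is not given in the labels. The conditions were therefore not taken as replicates, each genotype in each condition is a single library, and no p-value is given. The 2 input libraries were not analysed here, and the background at each island is therefore unknown. Peak lists carry no cell type markers, so the identity of the sorted cells was not checked.

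mSin3A is the scaffold of a co-repressor complex that carries histone deacetylases and is brought to chromatin by DNA-bound factors. Tcf1 and Lef1 are related HMG-box factors of the T cell lineage that can act with co-activators or co-repressors. Cd28 encodes the receptor that supplies the main costimulatory signal when a naive T cell meets antigen. Ctla4 encodes an inhibitory receptor that competes with Cd28 for the same ligands, and Icos encodes an inducible costimulatory receptor with a ligand of its own. All 3 receptors belong to the CD28 family, and their genes lie next to each other.

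The mm9 positions of exons were not used here, because the annotation at hand (GENCODE M21) is on the later build GRCm38. Within that annotation, 9 further genes lie between the coding start of Cd28 and the end of Icos, and 0 of them are protein coding. The start given for Ctla4 has the spacing of its outermost, non-coding transcript: this begins 140.6 kb after the coding Cd28 start on GRCm38, against 141 kb between the approximate starts on mm9. The coding Ctla4 transcript begins 22.0 kb further on in GRCm38. For Cd28, a non-coding transcript begins 29.6 kb before the coding start on GRCm38. By this spacing, distances to Cd28 below are from its coding start and those to Ctla4 from its outermost start. The starts are rounded to about the nearest kb, and they would differ by far more with another transcript of either gene.

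A promoter sequence for 1 of the 3 genes, Ctla4, was in the RefSeq table of promoters used here. It is shown because Tcf1 and Lef1 are known to bind the letters AACAAAG and the variants that open with AT, TA or TT in place of AA. The window was searched for these 4 motifs on both strands. The 300 bases (GRCm38.p6, chr1:60908775-60909074, plus strand, 5′ to 3′, capitals marking the match) run from 250 bases before the coding transcript's start to the first 50 bases of the transcript.
Ctla4: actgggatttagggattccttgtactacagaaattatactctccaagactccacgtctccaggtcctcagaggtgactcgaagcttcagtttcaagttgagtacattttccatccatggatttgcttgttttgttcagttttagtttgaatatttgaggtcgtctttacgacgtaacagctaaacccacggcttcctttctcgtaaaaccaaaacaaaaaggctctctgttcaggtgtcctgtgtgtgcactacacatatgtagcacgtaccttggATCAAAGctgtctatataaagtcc
The window holds 1 match, ATCAAAG, which overlaps no other match and begins 26 bases after the transcript start. On either strand, ATCAAAG is found in 3.73% of the 32851 promoter windows of this length in the table, and any of the 4 motifs in 16.9%. The match is a description of letters. Its exact position on mm9 was not derived. By the spacing on GRCm38, the coding Ctla4 start lies 162667 bases after the coding Cd28 start. No island was listed between 115.6 and 165.2 kb after the approximate Cd28 start. If the spacing is similar on mm9, no island covers the match.

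The start of Cd28 was the only place in the locus where mSin3A was listed in all 4 libraries. In condition 1 the DKO island ran from 60802401 to 60803999 with 60 reads, and the WT island from 60800001 to 60803399 with 75 reads. In condition 2 the DKO island ran from 60802401 to 60803399 with 37 reads, and the WT island from 60801801 to 60803799 with 57 reads. The 4 islands have 999 bp in common, 60802401 to 60803399, which reach from 0.6 kb before to 0.4 kb after the approximate Cd28 start. This stretch holds all the bases of the locus that were called in every library. When every list was shortened to its 11151 islands richest in reads, neither DKO island over the Cd28 start was kept and both WT islands were. The WT list of condition 2 is itself 11151 islands long and lost none, whereas the DKO list of condition 1 was reduced from 15954. The DKO island lost in condition 1 ranked higher in its list (27.8% of islands with fewer reads) than the WT island kept in condition 2 (13.8%), so this outcome depends on list length.

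**Figure D1:**
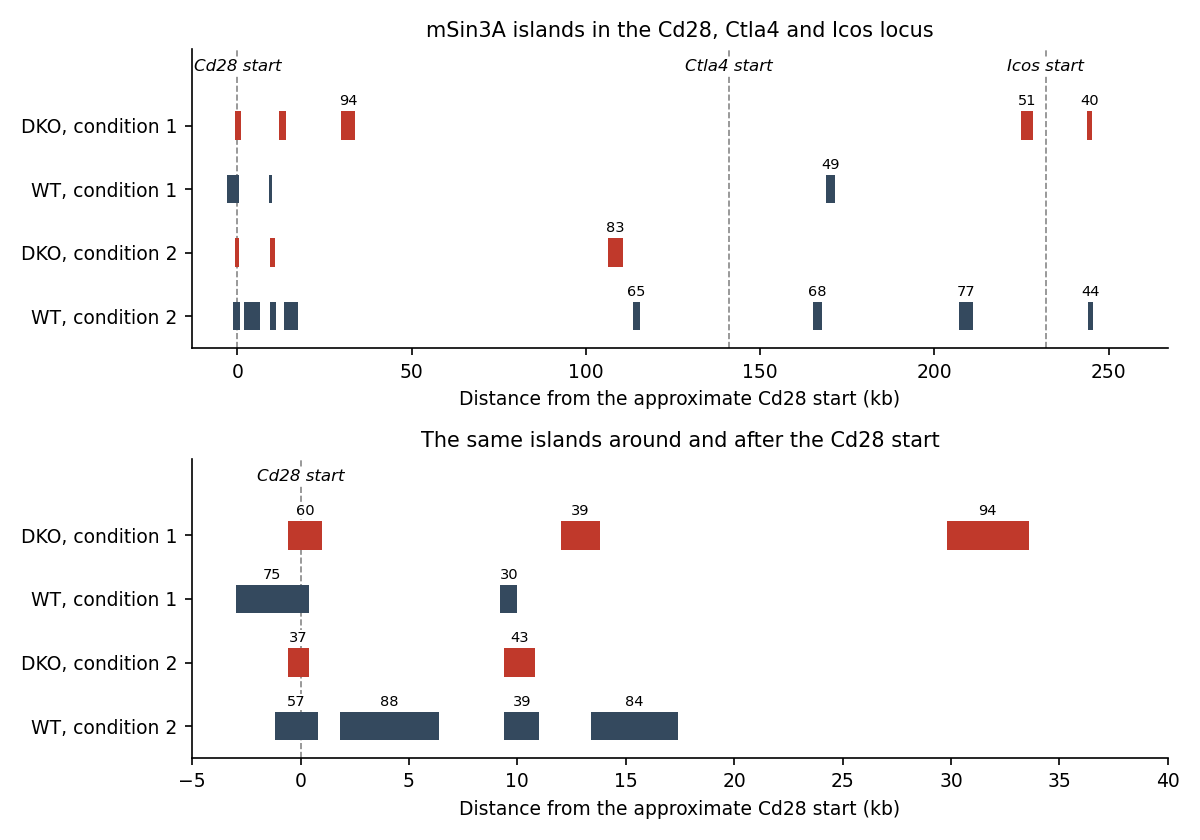
Positions of the 19 mSin3A islands along the locus (top) and in the part around and after the Cd28 start (bottom), in kb from the approximate Cd28 start. Each bar is 1 island of 1 library (DKO in red, WT in dark blue), the numbers are its ChIP reads (for islands near Cd28 in the bottom part only), and dashed lines mark the approximate gene starts. The bars coincide in all 4 libraries only at the Cd28 start.

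DKO islands over the Cd28 start held fewer reads on fewer bases in both conditions. Read ratios were centred on the median ratio of the 5637 regions called in all 4 libraries, so that 1 means a region behaves like the middle region. In condition 1 the centred ratio of DKO to WT reads was 0.835, with an exact 95% interval (Clopper-Pearson) of 0.584 to 1.19. In condition 2 it was 0.689, with an interval of 0.443 to 1.06. Both intervals include 1, so at this depth a difference in reads was not detectable beyond counting error. The intervals here and below cover counting error only and not the spread between mice.

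Read density over the Cd28 start went the other way. It was 37.5 reads per kb in DKO and 22.1 reads per kb in WT in condition 1, and 37.0 reads per kb in DKO and 28.5 reads per kb in WT in condition 2. The DKO islands were thus denser in both conditions, with a called length of 1599 bp in DKO and 3399 bp in WT in condition 1, and of 999 bp in DKO and 1999 bp in WT in condition 2. The ratio of densities, which was not centred, was 1.70 in condition 1, with an interval of 1.19 to 2.42. In condition 2 it was 1.30, with an interval of 0.835 to 2.00 that includes 1. Both intervals take the called lengths as fixed, although the lengths were called from the same reads, so they leave out the error in length. Of the 5637 regions called in all 4 libraries, 96.0% had a lower density ratio in condition 1 and 84.9% in condition 2. Fewer reads after centring together with a higher density in DKO, in both conditions, was found in 11.6% of these regions. The DKO island of condition 2 is the common 999 bp itself, so its 37 reads all belong to that stretch. The islands of the other libraries reach beyond it, so their reads within the common 999 bp are not known.

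After the Cd28 start, islands recurred in part of the libraries. The stretch from 9.2 to 11.0 kb after the start (60812201 to 60813999) was listed in 3 libraries. The DKO library had no island there in condition 1, where WT had one of 30 reads. In condition 2 the DKO island had 43 reads and the WT island 39 reads, a centred ratio of 1.17 (exact 95% interval 0.741 to 1.85) that does not differ from 1 beyond counting error. A library without an island has an unknown number of reads at that place, so no fold can be given for condition 1.

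Next to it, 60815001 to 60820399 was listed for opposite genotypes in the 2 conditions. In condition 1 it held a DKO island of 39 reads and no WT island. In condition 2 it held no DKO island and a WT island of 84 reads. The islands differ in place as well, at 12.0 to 13.8 kb and at 13.4 to 17.4 kb after the Cd28 start, so that they share a short end.

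Islands of a single library completed the Cd28 group. WT cells in condition 2 alone had 88 reads from 1.8 to 6.4 kb after the start (60804801 to 60809399). DKO cells in condition 1 alone had 94 reads from 29.8 to 33.6 kb after it (60832801 to 60836599), the highest read number of the 19 islands. Beyond that island, no library listed any for 72.8 kb. Assigned to the nearest gene start, 11 of the 19 islands belonged to Cd28, 4 to Ctla4 and 4 to Icos. Cd28 was nearest to 3 DKO islands and 2 WT islands in condition 1, and to 2 DKO islands and 4 WT islands in condition 2.

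None of the 4 regions nearest to Ctla4, the inhibitory receptor gene, was called in more than 1 library, and over the genome 48.1% of regions were called in 1 library. Before the outermost Ctla4 start, DKO cells in condition 2 had an island of 83 reads from 34.6 to 30.4 kb upstream (60909401 to 60913599). WT cells in condition 2 had one of 65 reads from 27.6 to 25.4 kb upstream (60916401 to 60918599), 2.8 kb from the DKO island and sharing no base with it. These islands of different genotypes therefore lay close together in the same condition.

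Between the outermost Ctla4 start and the Icos start, DKO had 1 island in condition 1 and 0 in condition 2, and WT had 1 island in condition 1 and 2 in condition 2. Nearest to Ctla4, WT cells had 68 reads from 24.2 to 26.8 kb downstream in condition 2 (60968201 to 60970799), and 49 reads from 28.0 to 30.6 kb downstream in condition 1 (60972001 to 60974599). The gap between them was 1.2 kb. These distances are from the outermost start. By the spacing on GRCm38, the coding Ctla4 start lies 162667 bases after the coding Cd28 start. Measured from the approximate Cd28 start, the 2 WT islands begin at 165.2 and 169.0 kb, so by this spacing they lie shortly after the coding Ctla4 start. Counted separately, each was a call of a single library. Joined when islands lie within 2 kb, they formed a region called in both WT libraries and in neither DKO library, which 2.90% of all 21006 regions joined in that way were. DKO cells had no island nearest to Ctla4 in condition 1 and 1 in condition 2, against 1 WT island in condition 1 and 2 in condition 2.

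Near Icos, the islands fell before and after the gene start but not on it. WT cells in condition 2 had 77 reads from 25.0 to 21.0 kb upstream (61010001 to 61013999). DKO cells in condition 1 had 51 reads from 7.2 to 3.6 kb upstream (61027801 to 61031399), the lowest density of the 19 islands at 14.2 reads per kb. From 11.8 to 13.6 kb after the Icos start (61046801 to 61048599), DKO cells had an island of 40 reads in condition 1 and none in condition 2, while WT cells had none in condition 1 and one of 44 reads in condition 2. These last 2 islands are 1599 bp wide each and are shifted by a single 200 bp window. So the place recurred across libraries, but for opposite genotypes in the 2 conditions.

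The islands of the locus were weak within their own lists. They held 30 to 94 reads with a median of 57, whereas the median over a whole list was 94 and 112 reads in DKO and 106 and 127 reads in WT, in conditions 1 and 2. Between 1.13% and 49.5% of the islands of the same list had fewer reads, with a median of 19.0%, and the island with the most reads, 94, equalled the median of its list. By density they were spread more widely, with 0.708% to 80.9% of the list less dense and a median of 40.1%. The islands over the Cd28 start were among the denser ones in DKO, above 79.2% of the list in condition 1 and above 77.5% in condition 2. In WT the corresponding shares were 29.8% and 51.2%.

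**Figure D2:**
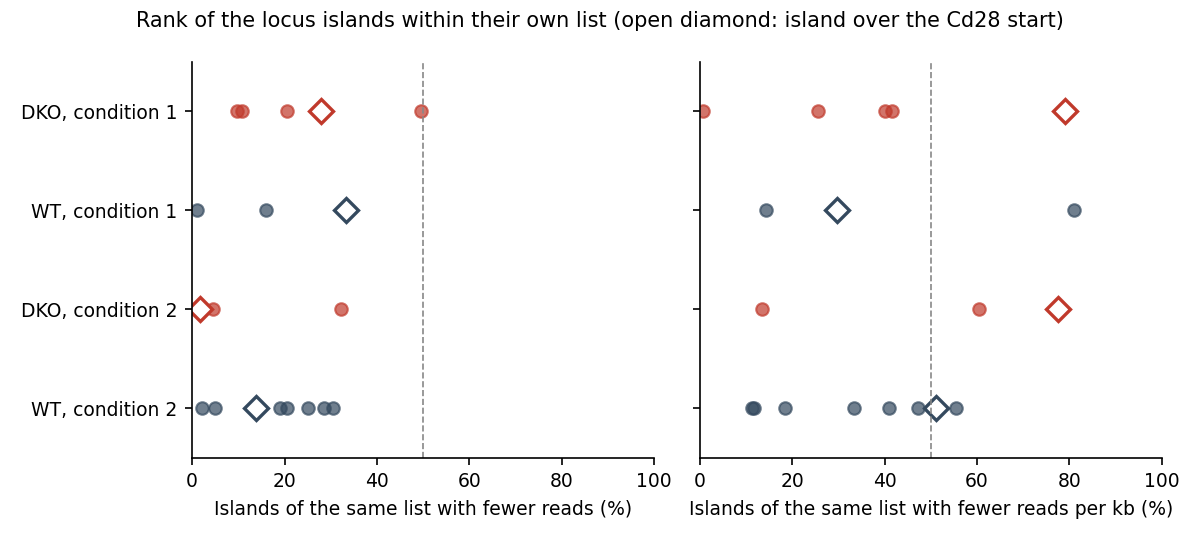
Rank of each locus island within the list of its own library, by reads (left) and by reads per kb (right), as the percent of islands in that list with a lower value. Each point is 1 island, open diamonds are the islands over the Cd28 start, and the dashed line is the middle of the list. By reads the points lie at 1.13% to 49.5%, the last being the island of 94 reads that equals its list's median.

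Merging islands that share a base or touch gave 12 regions in the locus, out of 23510 over the genome. Of the 12, 8 were called in a single library (66.7%, exact 95% interval 34.9 to 90.1), against 48.1% of all regions. Another 2 were called in 2 libraries, against 17.0% of all regions, and 1 in 3 libraries, against 11.0%. Only the region over the Cd28 start was called in all 4 (8.33%, interval 0.211 to 38.5), against 24.0% of all regions. The intervals of the first and last shares include the share over the genome, so with 12 regions neither differs from it beyond counting error. With islands joined within 2 kb, 2 regions were called in all 4 libraries, against 26.1% of all joined regions, the second being the stretch from 9.2 to 17.4 kb after the Cd28 start.

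**Figure D3:**
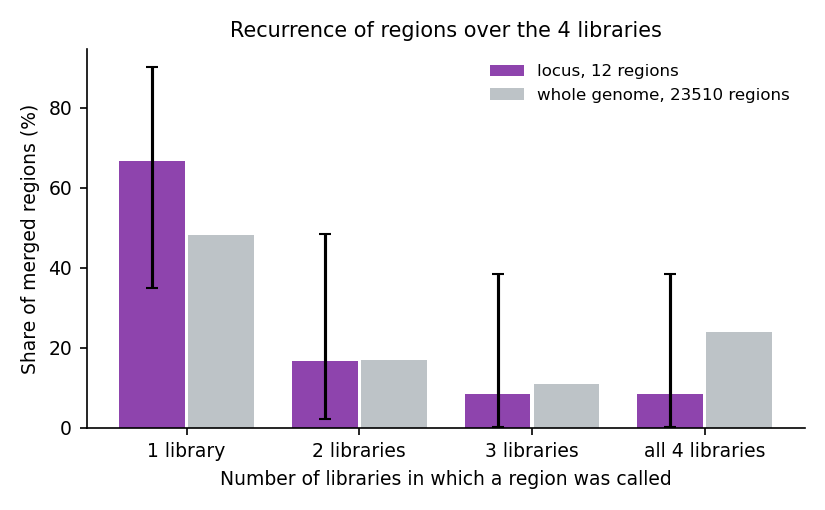
Percent of merged regions called in 1, 2, 3 or all 4 libraries, for the 12 regions of the locus (purple, error bars are exact 95% intervals for counting error) and for the 23510 regions of the genome (grey). In the locus 66.7% were called in 1 library and 8.33% in all 4, against 48.1% and 24.0% over the genome, with intervals that include the genome values.

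No region of the locus, as merged by shared bases, appeared in the 2 lists of one genotype while missing from the 2 lists of the other. Over the genome 8.98% of regions were DKO-only in this sense and 2.91% WT-only, and 0 of 12 allows a share of up to 26.5% (upper end of the exact 95% interval). Both genotypes were called in 1 of 12 regions in condition 1, against 32.3% over the genome, and in 2 in condition 2, against 29.2%. Within condition 1, 4 of 12 regions were DKO-only, against 28.6% over the genome, and 2 were WT-only, against 20.3%. Within condition 2, 1 region was DKO-only, against 23.7%, and 6 were WT-only, against 15.2%. The last of these is the share farthest from its background, with an exact 95% interval of 21.1% to 78.9%. It rests on the WT condition 2 library, without which 8 regions of the locus remain. The interval lies above 15.2%, but it treats the 12 regions as independent, although they are neighbours called from the same libraries. The share was also singled out as the farthest of those listed, so its interval is no test. In 2 of 12 regions (16.7%) the genotype switched between conditions, against 2.48% of all regions. They lay 12.0 to 17.4 kb after the Cd28 start and 11.8 to 13.6 kb after the Icos start. The exact 95% interval of this share, 2.09% to 48.4%, includes the share over the genome.

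Where both genotypes were called in the same condition, no region passed 2-fold. There were 3 such values, 2 at the Cd28 start and 1 at 9.2 to 11.0 kb after it, with centred ratios of DKO to WT reads between 0.689 and 1.17. Over the genome, at least 2-fold higher reads in DKO were found in 3.01% of the 7605 regions called in both genotypes in condition 1 and in 2.90% of 6860 in condition 2. At least 2-fold lower reads were found in 4.62% and in 4.17%.

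Summed over the locus, DKO exceeded WT in condition 1 and fell below WT in condition 2. In condition 1 there were 5 DKO islands with 284 reads (exact Poisson 95% interval 251.9 to 319) over 12.4 kb, and 3 WT islands with 154 reads (130.6 to 180.3) over 6.80 kb. In condition 2 there were 3 DKO islands with 163 reads (138.9 to 190.0) over 6.60 kb, and 8 WT islands with 522 reads (478.2 to 568.8) over 22.6 kb. The centred ratio of these sums, DKO over WT, was 1.92 in condition 1 and 0.331 in condition 2. It is no fold change in reads over the locus, because the sums cover different stretches in each library and the reads outside islands are unknown. With lists of equal length the ratios were 1.30, from 94 reads in DKO and 75 in WT, and 0.169. The library that stood apart was WT in condition 2, whose list was the shortest of the 4 with 11151 islands.

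The sums followed the called length. Reads per kb of called length over the locus were 22.9 in DKO and 22.7 in WT in condition 1, and 24.7 in DKO and 23.1 in WT in condition 2. The ratios of these densities were 1.01 and 1.07, while the ratios of called length, DKO over WT, were 1.82 and 0.292. The ratios of the island sums thus mirrored those of called length. Density inside called islands was also similar between the whole lists, and reads outside islands are unknown. These values therefore cannot show whether reads over the whole locus differed between genotypes. In all 4 libraries the locus was less dense than the list it came from, at 29.0 reads per kb in DKO and 28.7 in WT in condition 1, and 29.3 in both genotypes in condition 2.

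**Figure D4:**
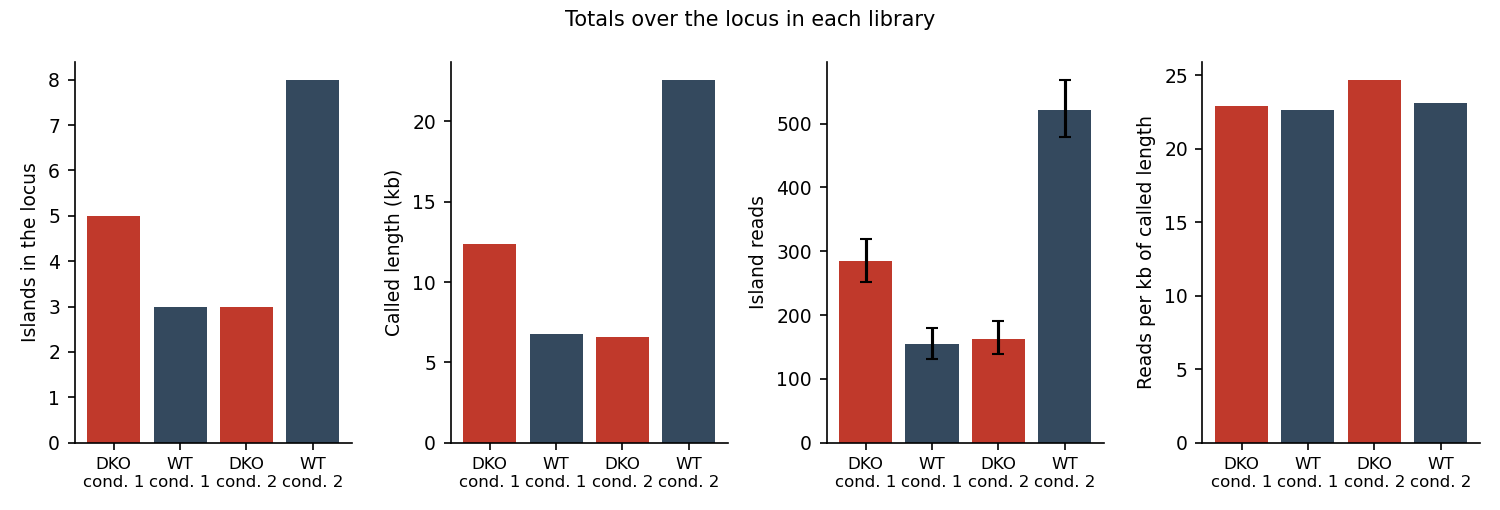
Islands, called length in kb, island reads and reads per kb of called length over the locus, for each of the 4 libraries (DKO in red, WT in dark blue, 1 library per bar). Error bars on reads are exact Poisson 95% intervals for counting error. Reads run from 154 to 522 with called length, while reads per kb stay between 22.7 and 24.7.

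Windows of 280 kb laid end to end over the genome give the scale of these sums. Of 9397 windows, 5122 held an island in some library. The 8 WT islands of condition 2 exceeded the number in 95.7% of these windows, and their reads exceeded 78.0%. The 5 DKO islands of condition 1 exceeded 75.0% of windows. The 3 DKO islands of condition 2 exceeded 60.1%, and the 3 WT islands of condition 1 exceeded 61.2%. In the 3177 windows with an island in every library, the direction of the DKO to WT read ratio differed between conditions in 39.3%, so a change of direction by itself was common. A gap between the conditions as wide as that of the locus, 2.54 on the log2 scale, was found in 1.70% of them, against a median gap of 0.45. Taken singly, a ratio at least as high as that of the locus in condition 1 was found in 11.7% of these windows. One at least as low in condition 2 was found in 1.01%. The windows were not matched for islands, with a median of 13 over the 4 lists against 19 in the locus.

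**Figure D5:**
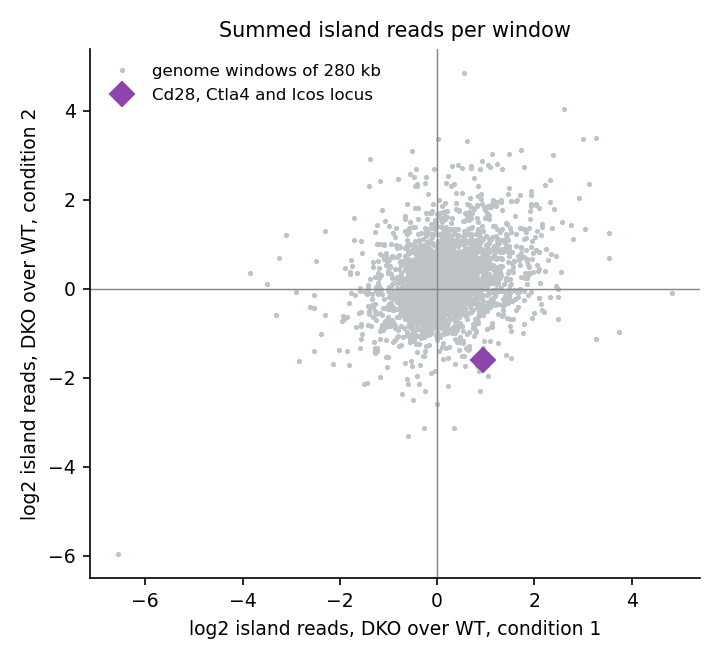
Log2 ratio of summed island reads, DKO over WT and centred on the median region, in condition 1 (x axis) and condition 2 (y axis). Grey points are 3177 genome windows of 280 kb with an island in every library and the purple diamond is the locus, at 0.94 and -1.59, in the quadrant that is higher in DKO in condition 1 and lower in condition 2.

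A smaller share of bases was common to 2 lists in the locus than over the whole genome. The genome shares were not matched for width or reads. The locus islands were narrow and weak in their lists, with a median of 13.7% of the list narrower and 19.0% with fewer reads. Whether islands as narrow and weak elsewhere overlap as little was not tested. DKO and WT shared 5.49% of the bases called in either list in condition 1 and 8.95% in condition 2, against 34.6% and 35.6% over the genome. Between conditions, the DKO libraries shared 5.55%, against 44.1% over the genome, and the WT libraries shared 8.08%, against 36.5%. The pairs that differed in genotype and condition shared 10.1% (DKO in condition 1 with WT in condition 2) and 13.5% (DKO in condition 2 with WT in condition 1), each against 35.3%. Of the 280000 bp, 239412 were called in no library, 35392 in 1 library, 3598 in 2, 599 in 3 and 999 in all 4.

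Distances to the nearest island outside the locus differed between libraries. After the locus, the next island lay 1698 kb away in DKO and 34.4 kb away in WT in condition 1, and 1699 kb away in DKO and 1826 kb away in WT in condition 2. Before it, the nearest island was 27.6 kb away in DKO and 389 kb in WT in condition 1, and 28.0 kb in DKO and 11.4 kb in WT in condition 2. Total sequencing depth is not given in the sources used here. The reads in all islands of a library ranged from 1792952 to 1917097. These totals also depend on which islands were called, so they do not show whether the libraries were sequenced to a similar depth.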

How the data were processed

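Each of the 4 ChIP libraries had 1 deposited list of islands with chromosome, start, end and a whole number, with no header. The whole number was taken to be a count of reads, judging by its values and by the layout of SICER output. The counts stand as deposited, with no scaling to library or island size. The tools named are FastQC, Bowtie2 2.2.5 and SICER 1.1, and the build is mm9, per the submitters' processing notes. SICER's settings and any use of the inputs were not given in the sources used here. All starts were multiples of 200 bp, and islands lay at least 800 bp apart.

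Starts are printed 1-based, and an island's width is its end as deposited less its start as deposited. Islands with a base in the locus were kept, merged over the lists when they shared a base or touched, and compared with all 23510 merged regions and with 280 kb windows. Ratios were divided by the median over regions called in all 4 libraries (log2 -0.06 and -0.09 in conditions 1 and 2). Intervals are exact 95% intervals for counting error. The locus and the analyses were chosen with earlier results of these data known, and every island of the locus is reported. Other costimulatory genes listed for description were not looked up, since no mm9 annotation was used. Gene positions on GRCm38 were used for spacing and neighbours only. Functions were tested on simulated data. Python 3.11.15, numpy 2.4.6, pandas 2.3.3, scipy 1.17.1 and matplotlib 3.10.9 were used.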

Additional observations from a re-analysis of the deposited data

Results flagged for a closer look

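Island reads summed over the locus differed between DKO and WT in opposite directions in the 2 conditions, with centred ratios of 1.92 in condition 1 and 0.331 in condition 2. Per kb of called length the ratios were 1.01 and 1.07, so these are ratios of sums over different called stretches and not fold changes in reads over the locus. Each ratio sets 1 library against 1 other, and the difference between the ratios was not tested. Opposite calls were also found at 2 places. At 12.0 to 17.4 kb after the Cd28 start an island was called in DKO only in condition 1, with 39 reads, and in WT only in condition 2, with 84 reads. At 11.8 to 13.6 kb after the Icos start the same held, with 40 reads in DKO in condition 1 and 44 reads in WT in condition 2. Neither difference was tested, and the reads of the libraries without an island are unknown.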

How the results depend on the processing

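The locus holds islands with few reads, and both rules that kept the islands richest in reads removed many of them. The lack of replicates and of input limits every value. When each list was reduced to the 50% of islands richest in reads, 1 island remained, in DKO in condition 1, with 94 reads (the median of its list) over 3799 bp. The other 3 libraries then had 0 islands, 0 reads and 0 bp, 1 region was called in 1 library and DKO-only in condition 1, the other region counts that were above 0 became 0, and the overlaps of the pairs with DKO in condition 1 were 0%. With lists of equal length (11151 islands each), DKO kept 1 island in condition 1 (94 reads, 3799 bp) and 1 in condition 2 (83 reads, 4199 bp), and WT kept 1 in condition 1 (75 reads, 3399 bp) and all 8 in condition 2. The centred read ratios were then 1.30 and 0.169 in conditions 1 and 2. The WT list of condition 2 lost no island under this rule, so list length sets part of what follows. In these lists the region over the Cd28 start was called in both WT libraries only, so 1 region was WT-only in both conditions, 1 was WT-only and 1 DKO-only in condition 1, 1 was called in 2 libraries, 0 were called in 3 or in all 4, 0 switched genotype, and the overlaps of every pair but the WT pair were 0%.

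Per kb of called length, the ratio of DKO to WT over the locus was 1.01 in condition 1 and 1.07 in condition 2. The exact intervals, with called lengths taken as fixed, were 0.828 to 1.24 in condition 1 and 0.891 to 1.28 in condition 2. Both include 1, so per kb no difference in either direction was detectable beyond counting error. Scaling by total island reads, no scaling and a locus shortened by 10 kb at each end left the read ratios inside their own intervals. With islands of at least 1 kb, WT in condition 1 held 124 reads. Joining islands within 2 kb gave 2 regions called in all 4 libraries, 0 in 3 and 5 in 1 library, 1 region that switched genotype, and 1 WT-only region in condition 1, which was WT-only in both conditions. Joining within 5 kb, chosen after seeing the data, gave 1 WT-only region in condition 1 that was WT-only in both conditions, 3 WT-only and 0 DKO-only regions in condition 2, and 1 that switched. A reciprocal overlap of 50% left 0 regions called in all 4 libraries and 1 that switched. Leaving out each library in turn, also chosen afterwards, left between 8 and 11 regions, of which 6 to 8 were called in 1 library. No paired analysis was possible because the groups compared hold 1 library each and share fewer than 2 replicate numbers, and the conditions, whose nature is not given, were not used as a block.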
